A study of Mus musculus with 36 samples.

Results

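A set of 8 genes of the double-stranded RNA sensing pathway was followed across every genotype, out of 52636 genes counted. They were taken by symbol and matched to their Ensembl identifiers, and all 8 were found. Ddx58 (RIG-I), Ifih1 (MDA5) and Dhx58 (LGP2) are the RIG-I-like helicases, which bind double-stranded RNA in the cytosol. Mavs is the mitochondrial adaptor on which RIG-I and MDA5 signal. Tbk1 and Ikbke (IKK epsilon) are the related kinases that phosphorylate the interferon regulatory factors downstream of it. Eif2ak2 (PKR) is an interferon-inducible kinase that halts translation when it binds double-stranded RNA, and Adar (ADAR1) edits adenosines in such RNA and thereby limits recognition of the cell's own transcripts. Most genes of this group are themselves interferon-stimulated genes, so their transcripts rise in cells that respond to interferon. In the intestine they are expressed by epithelial cells and by leukocytes.

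RNA was sequenced from untreated E18.5 mouse intestines and from untreated MEFs, the fibroblasts grown from mouse embryos, with 3 libraries for each of 12 groups. The first set of intestines (the D387A set) held Mlkl KO controls (Mlkl), Casp8 D387A KI (Casp8DA), and Casp8 D387A KI combined with Cflar KO and Mlkl KO (Casp8DA Cflar Mlkl). Its other groups added to the latter Casp1 KO (Casp8DA Cflar Mlkl Casp1), Casp1 KO with Ifnar1 KO (Casp8DA Cflar Mlkl Casp1 Ifnar1), or Casp1 KO with Fadd KO (Casp8DA Cflar Mlkl Casp1 Fadd). The second set (the C362A set) held its own Mlkl KO controls, Casp8 C362A KI with Mlkl KO (Casp8CA Mlkl), the same with Casp1 KO (Casp8CA Mlkl Casp1), and Casp8 C362A KI with Cflar KO and Mlkl KO (Casp8CA Cflar Mlkl). The MEFs were Mlkl KO or Casp8 D387A KI with Cflar KO and Mlkl KO. D387A impairs the autoprocessing of caspase-8 and C362A removes its catalytic cysteine. Mlkl, the effector of necroptosis, was thus deleted in every group but Casp8DA, the controls included, so Casp8DA differed from its controls at Mlkl too. The parent lines were on a C57BL/6N background. The Casp8DA Cflar Mlkl line descended from 1 mosaic founder that carried both deletions. The Cflar deletion of the C362A set was made separately and differed in size. In the first set the titles of the Mlkl and Casp8DA Cflar Mlkl libraries begin with a shared number and those of each other group with a number of their own. What that number marks is not given in the sources used here. In comparisons between groups with different numbers, it cannot be told apart from the genotype. The study's legends call the Mlkl intestines littermates of the Casp8DA Cflar Mlkl, Casp8CA Mlkl and Casp8CA Cflar Mlkl intestines, and which libraries share a litter is not given in the sources used here. The design asked how caspase-8 mutations, loss of cFLIP (the product of Cflar) and loss of caspase-1, the type I interferon receptor or FADD changed gene expression.

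All 8 genes are protein-coding. In GRCm38 (GENCODE M21), Ddx58 lies on chromosome 4 (40203773-40239828, minus strand), Ifih1 on chromosome 2 (62595798-62646255, minus), and Dhx58 on chromosome 11 (100694884-100704271, minus). Mavs lies on chromosome 2 (131234063-131248025, plus), Tbk1 on chromosome 10 (121546455-121586787, minus), and Ikbke on chromosome 1 (131254343-131279606, minus). Eif2ak2 lies on chromosome 17 (78852564-78882573, minus) and Adar on chromosome 3 (89715022-89753446, plus). The counts cover the exons of each gene. Exons of Adar overlap those of Chrnb2 on the opposite strand over 1365 bases, 16.81% of the exonic bases of Adar, and Chrnb2 itself had 94 to 307 reads per intestine library and 4 to 22 per MEF library. Dhx58, Eif2ak2 and Ikbke overlap antisense or noncoding transcripts over at most 174 bases. Whether the counting used strand is not stated, so reads from such overlaps cannot be told apart.

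The promoters are shown because 6 of the 8 genes moved together across the intestines while Mavs moved apart from them. Windows of 300 bases, 250 before and 50 after each start site, came from RefSeq on GRCm38.p6 for 7 of the 8 genes (9 windows, 3 of them for Adar). Dhx58 had no window in the table. They were searched on both strands for the core of the interferon-stimulated response element, which is GAAA followed after any 2 bases by GAAA again, for the shorter interferon regulatory factor core AANNGAAA, which lies inside every such element, and for the NF-kB motif. Capitals mark the matches to the first 2 motifs, and each sequence is written 5′ to 3′ on the strand of its gene. The windows are chr4:40239776-40240075 (minus) for Ddx58, chr2:62646206-62646505 (minus) for Ifih1, chr17:78882523-78882822 (minus) for Eif2ak2, chr3:89730468-89730767 (plus) for the third start of Adar, and chr2:131233813-131234112 (plus) for Mavs.
Ddx58: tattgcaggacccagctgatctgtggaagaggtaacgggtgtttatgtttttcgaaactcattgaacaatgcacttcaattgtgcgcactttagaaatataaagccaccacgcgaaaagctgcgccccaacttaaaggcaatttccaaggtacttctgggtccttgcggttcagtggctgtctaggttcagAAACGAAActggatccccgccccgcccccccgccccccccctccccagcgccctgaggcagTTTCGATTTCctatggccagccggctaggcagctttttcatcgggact
Ifih1: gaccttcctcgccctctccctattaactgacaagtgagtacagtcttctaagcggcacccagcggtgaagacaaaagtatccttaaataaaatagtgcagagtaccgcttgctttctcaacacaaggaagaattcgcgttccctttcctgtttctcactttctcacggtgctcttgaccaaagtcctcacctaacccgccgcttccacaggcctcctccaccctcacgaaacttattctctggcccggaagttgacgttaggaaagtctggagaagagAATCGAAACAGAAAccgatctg
Eif2ak2: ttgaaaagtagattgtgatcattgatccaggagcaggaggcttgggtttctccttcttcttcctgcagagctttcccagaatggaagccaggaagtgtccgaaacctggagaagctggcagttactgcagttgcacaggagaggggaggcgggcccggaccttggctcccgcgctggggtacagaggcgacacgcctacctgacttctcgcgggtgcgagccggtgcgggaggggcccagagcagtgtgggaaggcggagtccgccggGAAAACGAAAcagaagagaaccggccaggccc
Adar: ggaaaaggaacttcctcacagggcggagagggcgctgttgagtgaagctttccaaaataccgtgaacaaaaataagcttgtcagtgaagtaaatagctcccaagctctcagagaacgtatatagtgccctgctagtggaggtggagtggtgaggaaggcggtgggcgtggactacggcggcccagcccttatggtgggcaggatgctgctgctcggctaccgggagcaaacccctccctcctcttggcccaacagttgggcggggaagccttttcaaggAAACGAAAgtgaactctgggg
Mavs: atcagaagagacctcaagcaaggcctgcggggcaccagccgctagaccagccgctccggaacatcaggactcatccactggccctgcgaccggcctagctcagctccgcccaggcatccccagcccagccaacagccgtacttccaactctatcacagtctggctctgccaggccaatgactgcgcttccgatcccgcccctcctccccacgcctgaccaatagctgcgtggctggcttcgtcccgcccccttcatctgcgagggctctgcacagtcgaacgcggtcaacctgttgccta
The response element core was found in 3 of the 7 genes, or 3 of their 9 windows, and in 3.44% of the 32851 windows of all genes. In Ddx58 it was read on the reverse strand 2 to 11 bases after the start, in Ifih1 as GAAACAGAAA 32 to 41 bases after it, and in Eif2ak2 as GAAAACGAAA 18 to 27 bases after it. The shorter core AANNGAAA, present in 23.9% of all windows, was found in these 3 genes, in the third Adar window (29 to 36 bases after the start) and in Ikbke (on the reverse strand, from -132 to -125 relative to it). The windows of Mavs (shown) and Tbk1 held neither, and none of the 9 windows held the NF-kB motif, which occurs in 8.46% of all windows. A match is a description of these letters, and a window without one says only that the letters are not in it.

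Reads on genes numbered 17943524 to 27721024 per library in the first set of intestines, 21757868 to 31052238 in the second and 20927014 to 32307629 in the MEFs. Casp1 had at most 5 reads in the 12 libraries labelled Casp1 KO and at least 952 in the other intestines, and Fadd had 15 to 23 reads in the Fadd KO libraries and at least 689 in the other intestines. Ifnar1 had 813 to 893 reads in the Ifnar1 KO libraries against at least 1334 elsewhere, while reads on Cflar and Mlkl did not separate the groups. Epithelial markers (Epcam, Cdh1, Vil1, Cdx2 and Krt8) summed to at least 2374 CPM in every intestine and to 3.05 to 15.7 CPM in the MEFs. CPM scales reads by the TMM-scaled library size within each set, and not by gene length. Replicate 3 of Casp8DA Cflar Mlkl Casp1 stood apart from replicates 1 and 2 in 7 of the 8 genes, all but Mavs, which were higher in it than in either. Its macrophage markers summed to 634 CPM against 378 and 369, and its erythroid markers to 248 against 1454 and 732. In the erythroid sum it was replicates 1 and 2 that lay above every other intestine (at most 392 CPM). Reads of the pairs of replicate 3 with replicates 1 and 2 differed by 75.5 and 77.2 times the Poisson expectation, against 14.3 times between those replicates. Which of these libraries is atypical of the genotype was not tested. In the second set, replicate 3 of Casp8CA Cflar Mlkl differed from replicates 1 and 2 by 72.7 and 71.9 times, against 26.6 between those, and replicates 1 and 3 of Mlkl differed by 75.6 times. Tests of the 8 genes that rest on replicate 3 of Casp8DA Cflar Mlkl Casp1 are given with and without it. In bulk tissue, fewer cells of a type and less RNA per cell cannot be told apart.

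In the Mlkl intestines of the first set the transcripts of the 8 genes were of a like order per length. On the RPKM scale, which scales reads by gene length and library size, Mavs was highest at 31.7 ± 1.06 (SD, n = 3 here and throughout), followed by Tbk1 (17.5 ± 0.984), Adar (15.2 ± 2.27), Ddx58 (14.1 ± 2.19), Ikbke (13.7 ± 1.23) and Eif2ak2 (12.5 ± 1.62). Dhx58 (8.55 ± 3.50) and Ifih1 (5.71 ± 1.04) were lowest. Below Mavs, the ranges of every pair of neighbours in this order overlapped, so these were not separated by their spread. The Mlkl intestines of the second set, scaled separately, had Mavs highest (39.7 ± 1.65) and Ifih1 lowest (4.52 ± 0.692) as well. In the Mlkl MEFs Tbk1 (18.3 ± 1.15) and Eif2ak2 (14.3 ± 1.71) led, and Dhx58 was at 0.936 ± 0.253.

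**Figure D1:**
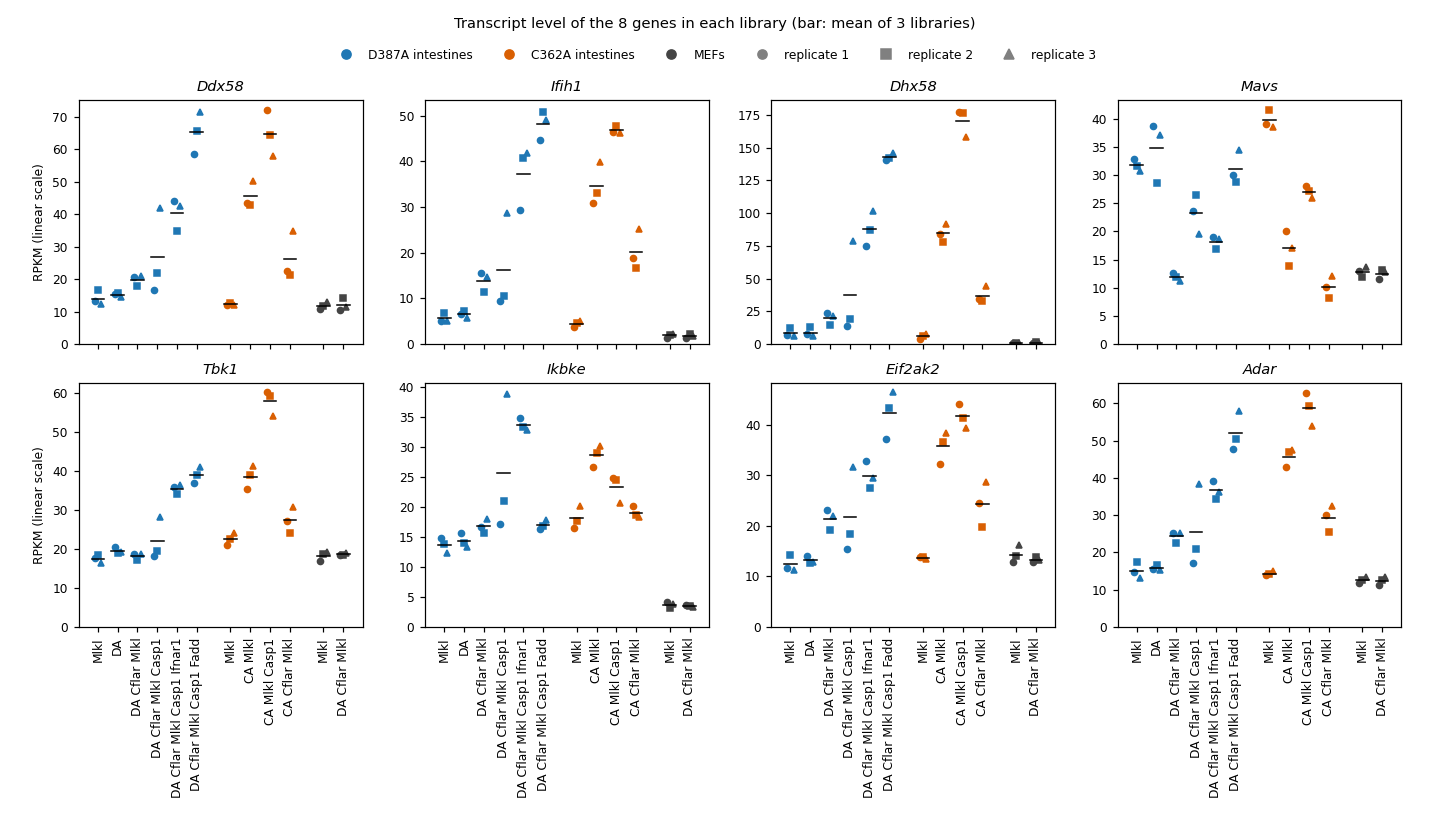
RPKM (linear scale, scaled within each set) of the 8 genes in each of the 36 libraries, with the groups along the x axis, the replicate as the symbol and a bar at the mean of 3 (DA and CA stand for Casp8DA and Casp8CA). Ddx58, Ifih1, Dhx58, Adar and Eif2ak2 have their highest means in Casp8DA Cflar Mlkl Casp1 Fadd in the first set and in Casp8CA Mlkl Casp1 in the second, replicate 3 of Casp8DA Cflar Mlkl Casp1 sits above the other replicates of its group in all 5, and Mavs is lowest in Casp8DA Cflar Mlkl (11.9) and Casp8CA Cflar Mlkl (10.1).

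The first comparison set D387A without other deletions against the Mlkl controls, from which it differed at Mlkl too. None of the 8 genes passed the test in Casp8DA against Mlkl intestines, where 0% of the 18360 genes tested rose and 0.00545% fell at an adjusted p under 0.05 (edgeR quasi-likelihood test with Benjamini-Hochberg adjustment, used throughout). Without adjustment 921 genes had a p under 0.05. The log2 fold changes of the members ran from 0.05 (Dhx58) to 0.19 (Ifih1). Dhx58 lay at 7.41, 12.8 and 6.32 RPKM in Casp8DA and at 6.96, 12.6 and 6.14 in Mlkl, with fully overlapping ranges. Tbk1, at 20.5, 19.0 and 19.2 RPKM against 17.6, 18.47 and 16.5, was the only member whose groups did not overlap, which held for 15.6% of all genes. Its log2 fold change was 0.16 ± 0.117 (SE, adjusted p = 0.969).

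In Casp8DA Cflar Mlkl intestines Ifih1, Dhx58, Adar and Eif2ak2 rose against Mlkl controls, Mavs fell, and Ddx58, Tbk1 and Ikbke did not pass the test. The 4 of 8 genes that rose compare with 29.9% of all genes tested, and the 1 that fell with 29.5%, 59.4% in either direction. The median log2 fold change of the 8 genes was 0.59, against -0.01 over all genes. The groups did not overlap in 7 of the 8 genes, all but Tbk1, and in 68.1% of all genes.

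Among the sensors, Ifih1 lay at 15.5, 11.4 and 14.7 RPKM in Casp8DA Cflar Mlkl and at 5.07, 6.91 and 5.16 in Mlkl. Every mutant library was above every control, with a log2 fold change of 1.28 ± 0.304 (adjusted p = 0.00151). Dhx58, which lacks the signalling domains of the other helicases and modulates them, lay at 23.6, 14.9 and 21.4 RPKM against 6.96, 12.6 and 6.14. The lowest mutant library was close to the highest control, and the change of 1.23 ± 0.474 (adjusted p = 0.0340) was lost without replicate 1 or replicate 3 of either group. Ddx58 lay at 20.6, 17.8 and 21.1 RPKM against 13.2, 16.5 and 12.4, a difference of 0.50 ± 0.226 that did not pass (adjusted p = 0.0681) although the ranges did not touch.

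Mavs had the smallest adjusted p of the 8. It lay at 12.6, 11.9 and 11.2 RPKM in Casp8DA Cflar Mlkl and at 32.9, 31.6 and 30.8 in Mlkl, with a log2 fold change of -1.42 ± 0.117 (adjusted p = 1.74e-08). Neither kinase passed the test. Tbk1 had 18.6, 17.2 and 18.7 RPKM against 17.6, 18.47 and 16.5 (0.05 ± 0.117, adjusted p = 0.734), and Ikbke had 16.7, 15.6 and 18.1 against 14.9, 13.9 and 12.4 (0.29 ± 0.195, adjusted p = 0.210). Both effectors were higher in every mutant library. Eif2ak2 lay at 23.1, 19.1 and 22.0 RPKM against 11.7, 14.3 and 11.3 (0.78 ± 0.188, adjusted p = 0.00177), and Adar at 25.3, 22.6 and 25.2 against 14.8, 17.6 and 13.1 (0.68 ± 0.200, adjusted p = 0.00713).

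All 18 intestines of the set shared the estimate of spread, and the library that stood apart widened it. Without replicate 3 of Casp8DA Cflar Mlkl Casp1, which is in neither group, 6 of 8 rose and 1 fell, where 30.6% of all genes rose and 30.3% fell. Ddx58 then passed (0.50 ± 0.124, adjusted p = 0.00209) and so did Ikbke (0.29 ± 0.0889, adjusted p = 0.00880), with the fold changes themselves unmoved. Tbk1 still did not pass (adjusted p = 0.545).

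Cell-type markers moved with these changes. The 5 absorptive enterocyte markers (Alpi, Fabp2, Apoa4, Sis and Slc5a1) summed to 923 to 2042 CPM in Casp8DA Cflar Mlkl against 30785 to 35132 in Mlkl, and 4 of the 5 fell. The 5 neutrophil markers summed to 31.2 to 117 CPM against 2.17 to 15.4, with S100a8, S100a9 and Ly6g higher, Mpo lower and Elane at 0 reads in all 3 mutant libraries. Ptprc, the pan-leukocyte gene, lay at 19.3 to 31.7 CPM against 10.7 to 12.8. Of 5 smooth muscle markers 4 rose, with sums of 5858 to 7388 CPM against 4420 to 4745, and of 5 fibroblast markers 3 rose (4530 to 4614 against 3461 to 3782). Of 7 macrophage markers 5 rose and 2 fell, with sums of 296 to 395 CPM against 408 to 437. Of 4 plasmacytoid dendritic cell markers 2 rose and 1 fell, with sums of 306 to 426 CPM against 124 to 148. That list includes Bst2, itself an interferon-stimulated gene, and its sum was 213 to 280 CPM in the MEFs. In any group, the sum therefore need not follow the number of such cells. What part the cell-type markers had in the result was not tested. Across the other groups the enterocyte sum was 36795 to 38639 CPM in Casp8DA, 15361 to 21907 in Casp8DA Cflar Mlkl Casp1, 17006 to 26445 with Ifnar1 KO added and 31079 to 35019 with Fadd KO added.

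**Figure D2:**
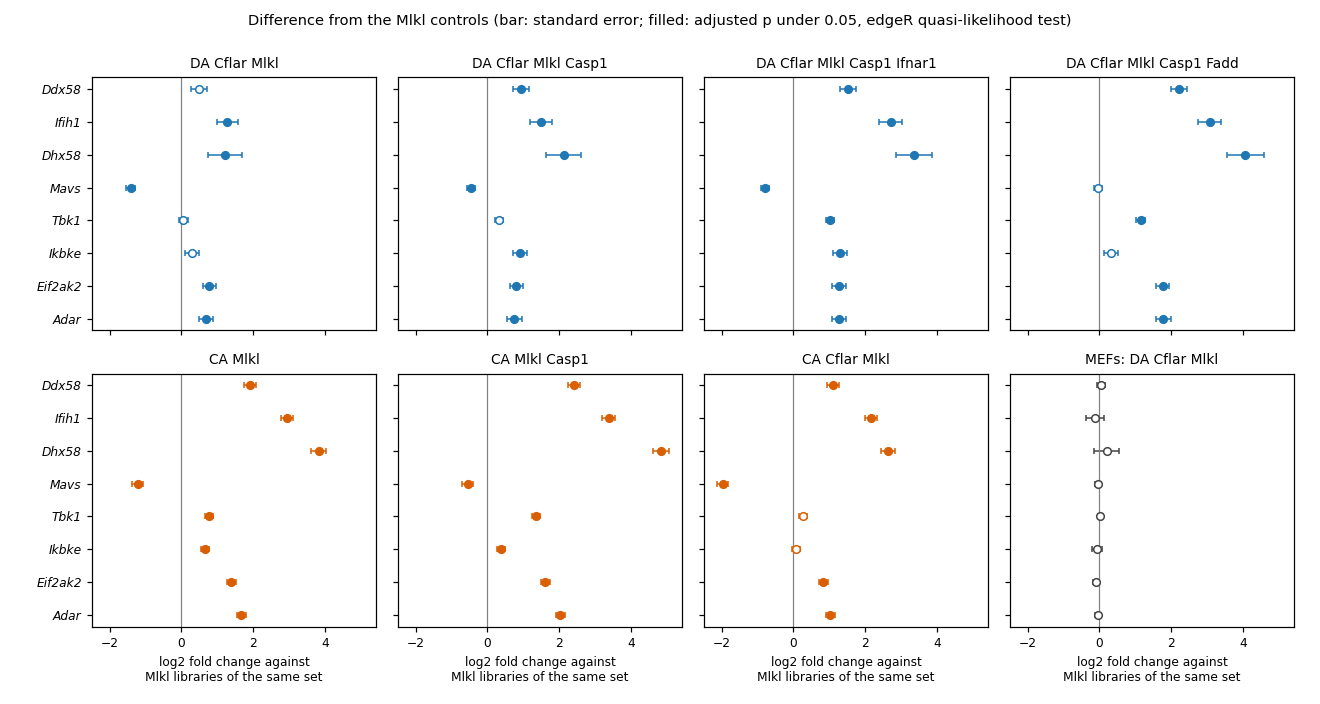
Log2 fold change against the Mlkl libraries of the same set (x axis, bar: standard error) for each gene (y axis) in 8 of the 9 groups compared with them (Casp8DA not drawn), filled where the adjusted p was under 0.05. No gene is filled in the MEFs, Mavs is on the left in every intestinal group filled for it, and Dhx58 reaches 4.06 in Casp8DA Cflar Mlkl Casp1 Fadd and 4.84 in Casp8CA Mlkl Casp1.

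The next comparisons concerned Casp1, which encodes the inflammasome protease caspase-1. Against the Mlkl controls, 6 of the 8 genes rose in Casp8DA Cflar Mlkl Casp1 intestines, Mavs fell and Tbk1 did not pass, where 10.2% of all genes rose and 11.2% fell. Dhx58 lay at 14.1, 19.3 and 78.6 RPKM, with a log2 fold change of 2.13 ± 0.481 (adjusted p = 0.00485). Ifih1 lay at 9.49, 10.5 and 28.6 RPKM (1.50 ± 0.305, adjusted p = 0.00237). In both genes the third library was far above the other two, and without it the changes shrank to 0.97 ± 0.283 for Dhx58 (adjusted p = 0.0256) and 0.80 ± 0.164 for Ifih1 (adjusted p = 0.00275). Ddx58, at 16.7, 22.0 and 41.8 RPKM, went from 0.93 ± 0.227 (adjusted p = 0.00773) to 0.46 ± 0.137 (adjusted p = 0.0274), and Ikbke, at 17.2, 21.1 and 38.9, from 0.91 ± 0.195 (adjusted p = 0.00355) to 0.48 ± 0.0982 (adjusted p = 0.00277). Eif2ak2, at 15.4, 18.4 and 31.7, went from 0.81 ± 0.188 (adjusted p = 0.00604) to 0.44 ± 0.121 (adjusted p = 0.0185).

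Adar lay at 17.2, 20.9 and 38.4 RPKM, and its lowest value was inside the control range of 13.1 to 17.6. Its change of 0.75 ± 0.201 (adjusted p = 0.0135) was no longer past the threshold without the third library (0.33 ± 0.117, adjusted p = 0.0611). Mavs, at 23.6, 26.4 and 19.6 RPKM, was below every control with all libraries (-0.45 ± 0.114, adjusted p = 0.00985) and without the third (-0.35 ± 0.112, adjusted p = 0.0410). Without that library 5 genes rose and 1 fell, where 7.14% of all genes rose and 9.95% fell. In a fit of these 2 groups alone, Mavs was the only member to pass. The call on Adar was also lost without replicate 3 of Mlkl. Among the markers, 4 of 7 for macrophages rose with all libraries, and 2 rose and 1 fell without the third, with sums of 369 to 634 CPM against 408 to 437 in Mlkl. Of 4 erythroid markers 3 rose, and all 4 without the third library (248 to 1454 CPM against 171 to 319), while 3 of 5 enterocyte markers fell in both fits. Of 4 plasmacytoid dendritic cell markers 2 rose and 2 fell, and 1 rose and 1 fell without the third library, which had 660 CPM against 181 and 188 in the others and 124 to 148 in Mlkl. The part of the markers in these changes was not tested.

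Set directly against Casp8DA Cflar Mlkl, 2 of the 8 genes changed with the loss of Casp1 when all libraries were used. Mavs rose by 0.96 ± 0.117 (adjusted p = 3.84e-06), all 3 libraries (19.6 to 26.4 RPKM) lying above the 3 with intact Casp1 (11.2 to 12.6). Ikbke rose by 0.62 ± 0.193 (adjusted p = 0.0147) although its lowest value, 17.2 RPKM, lay within the 15.6 to 18.1 RPKM of the other group. These 2 rises compare with 24.5% of all genes. Mavs was the only member whose groups did not overlap, as in 53.2% of all genes. The other 6 differed by 0.03 (Eif2ak2) to 0.90 (Dhx58) and did not pass. Without replicate 3, the sign changed in 5 genes. Ddx58 (-0.03) and Dhx58 (-0.26) did not pass, and 3 passed as lower: Ifih1 (-0.47 ± 0.163, adjusted p = 0.0227), Adar (-0.35 ± 0.118, adjusted p = 0.0189) and Eif2ak2 (-0.34 ± 0.121, adjusted p = 0.0270). Mavs remained higher (1.07 ± 0.111, adjusted p = 3.42e-07), and Ikbke did not pass (0.19 ± 0.0977, adjusted p = 0.119). In that fit 25.1% of all genes rose and 23.9% fell. Leaving out replicate 1 or replicate 2 of the same group instead gave 5 and 4 higher genes and none lower, and leaving out replicate 2 of Casp8DA Cflar Mlkl left Mavs as the only change. Cell-type markers moved with the loss of Casp1. Of the enterocyte markers 4 of 5 rose, their sum going from 923 to 2042 CPM to 15361 to 21907, and all 4 erythroid markers rose, from 135 to 271 CPM to 248 to 1454. Of the 4 neutrophil markers tested 3 fell, from 31.2 to 117 CPM to 5.59 to 13.7, all 5 smooth muscle markers fell, from 5858 to 7388 CPM to 3962 to 4218, and Ptprc fell. These counts were the same without replicate 3. In the fit without it, 3 of 5 fibroblast markers and 2 of the 3 T and NK cell markers tested also fell. Of 5 epithelial markers 2 rose and 2 fell there. Of the 7 macrophage markers 2 rose and 1 fell with all libraries, and 2 rose and 4 fell without replicate 3. What part these markers had in the result was not tested.

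**Figure D3:**
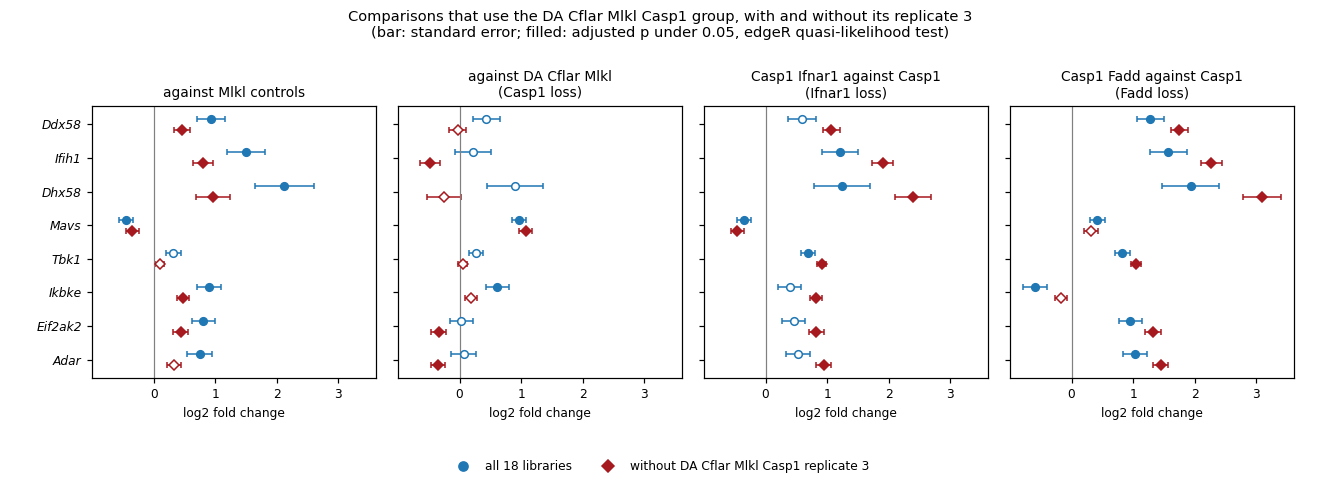
Log2 fold change (x axis, bar: standard error) of each gene in the 4 comparisons that use Casp8DA Cflar Mlkl Casp1, with all 18 libraries (circles) and without its replicate 3 (diamonds), filled where the adjusted p was under 0.05. Without replicate 3, Ifih1, Adar and Eif2ak2 cross 0 and are filled in the comparison for Casp1 loss, Dhx58 and Ddx58 cross it unfilled, and Dhx58 moves from 1.24 to 2.40 in that for Ifnar1 loss.

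Ifnar1 encodes a chain of the type I interferon receptor, through which interferon-stimulated genes respond to interferon alpha and beta. In Casp8DA Cflar Mlkl Casp1 Ifnar1 intestines 7 of the 8 genes rose against the Mlkl controls and Mavs fell, where 24.7% of all genes rose and 23.6% fell, 48.3% in all. No group overlapped its controls, which held for 56.9% of all genes. Dhx58 lay at 75.0, 87.5 and 102 RPKM, with a log2 fold change of 3.37 ± 0.499 (adjusted p = 3.82e-05), and Ifih1 at 29.4, 40.7 and 41.9 (2.71 ± 0.314, adjusted p = 3.83e-06). Ddx58 lay at 44.3, 34.9 and 42.5 RPKM (1.53 ± 0.229, adjusted p = 4.18e-05). All 3 sensors were above the whole control range in every library. Ikbke, at 34.8, 33.4 and 32.9 RPKM, was higher than in every other intestine of the set but replicate 3 of Casp8DA Cflar Mlkl Casp1 (1.30 ± 0.196, adjusted p = 4.58e-05). Tbk1 lay at 35.7, 34.1 and 36.3 RPKM (1.01 ± 0.117, adjusted p = 3.79e-06). Adar and Eif2ak2 rose by 1.27 ± 0.202 and 1.26 ± 0.189, and Mavs, at 19.1, 16.9 and 18.6 RPKM, fell by 0.80 ± 0.115. Without replicate 3 of Casp8DA Cflar Mlkl Casp1 the counts stayed at 7 higher and 1 lower, where 25.4% of all genes rose and 24.3% fell. Of 7 macrophage markers 4 rose against Mlkl (5 without that library), with sums of 532 to 601 CPM against 408 to 437, and Ptprc rose to 21.5 to 26.7 CPM from 10.7 to 12.8. Of the 4 neutrophil markers tested 2 rose and 1 fell, 3 of 5 fibroblast markers fell, and the plasmacytoid dendritic cell sum was 593 to 756 CPM against 124 to 148, with 1 of 4 higher and 1 lower. In the fit without replicate 3 of Casp8DA Cflar Mlkl Casp1, 3 of 5 epithelial markers rose, and 2 of 5 enterocyte markers rose and 1 fell. There 2 of 5 smooth muscle and 3 of 4 erythroid markers fell, and 2 of the 3 pancreatic acinar markers tested rose. The part of the markers in the result was not tested.

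Against Casp8DA Cflar Mlkl Casp1, the libraries that also lacked Ifnar1 had higher Ifih1 (1.21 ± 0.296, adjusted p = 0.00643), Dhx58 (1.24 ± 0.454, adjusted p = 0.0473) and Tbk1 (0.69 ± 0.116, adjusted p = 0.000742) and lower Mavs (-0.35 ± 0.115, adjusted p = 0.0297). These 3 rises compare with 15.5% of all genes and the fall with 15.1%. Without replicate 3 all 8 genes passed, 7 higher and Mavs lower, where 20.3% of all genes rose and 18.9% fell. Dhx58 then differed by 2.40 ± 0.294 (adjusted p = 6.24e-06), Ifih1 by 1.90 ± 0.171, Ddx58 by 1.07 ± 0.140, Adar by 0.94 ± 0.120 and Ikbke by 0.82 ± 0.0991. Leaving out replicate 1 or 2 of Casp8DA Cflar Mlkl Casp1, or replicate 2 or 3 of the group lacking Ifnar1, left 2 genes past the threshold, Ifih1 and Tbk1. Dhx58 was also lost without replicate 1 of the latter group, and in a fit of these 2 groups alone Tbk1 was the only member to pass. Macrophage markers summed to 532 to 601 CPM in the group lacking Ifnar1 and Ptprc to 21.5 to 26.7 CPM, against 369 to 634 and 14.5 to 19.0 in the other. Of the 7 macrophage markers 0 passed with all libraries and 5 rose without replicate 3 of Casp8DA Cflar Mlkl Casp1. Ptprc rose in both fits. Of the 4 neutrophil markers tested 0 rose, and 2 without that library, and of the 5 enterocyte markers 2 rose, and 3 without it. All 4 erythroid markers fell, to 85.6 to 165 CPM from 248 to 1454, and the 3 pancreatic acinar markers tested rose, to 18.9 to 45.2 CPM from 1.18 to 1.76. Their part in the result was not tested.

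FADD is the adaptor that brings caspase-8 to death receptors. Of the 6 groups of the first set, the one that also lacked Fadd had the highest levels of 6 of the 8 genes. Dhx58 lay at 140.4, 142 and 146 RPKM, with a log2 fold change of 4.06 ± 0.512 against Mlkl (adjusted p = 3.79e-05). Ifih1 lay at 44.6, 50.9 and 49.1 RPKM (3.08 ± 0.319, adjusted p = 6.83e-06) and Ddx58 at 58.5, 65.8 and 71.6 (2.22 ± 0.233, adjusted p = 7.45e-06). All 3 sensors were above every library of every other group of the set. Adar, at 47.9, 50.6 and 57.9 RPKM, rose by 1.78 ± 0.205, Eif2ak2, at 37.1, 43.2 and 46.5, by 1.76 ± 0.191, and Tbk1, at 36.8, 39.0 and 40.9, by 1.15 ± 0.118.

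The adaptor and the second kinase did not pass the test against Mlkl. Mavs lay at 30.0, 28.8 and 34.4 RPKM, overlapping the 30.8 to 32.9 of Mlkl (-0.03 ± 0.114, adjusted p = 0.893), and Ikbke at 16.3, 16.9 and 17.9, above the 12.4 to 14.9 of Mlkl without passing the test (0.31 ± 0.195, adjusted p = 0.298). Hence 6 of 8 genes rose and none fell, where 9.97% of all genes rose and 8.4% fell. The groups did not overlap in 7 of the 8, all but Mavs, and in 38% of all genes. Ikbke passed as well without replicate 3 of Casp8DA Cflar Mlkl Casp1 (0.31 ± 0.0889, adjusted p = 0.0162), where 11.9% of all genes rose and 10.5% fell.

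Against Casp8DA Cflar Mlkl Casp1, the further loss of Fadd raised 7 genes and lowered Ikbke, where 10.5% of all genes rose and 7.35% fell. The rises were 1.94 ± 0.462 for Dhx58 (adjusted p = 0.00808), 1.57 ± 0.298 for Ifih1, 1.28 ± 0.225 for Ddx58, 1.03 ± 0.200 for Adar, 0.95 ± 0.186 for Eif2ak2, 0.83 ± 0.116 for Tbk1 and 0.42 ± 0.114 for Mavs (adjusted p = 0.0166). Ikbke differed by -0.59 ± 0.193 (adjusted p = 0.0415), and it was the only member whose groups overlapped. They did not overlap in 29.6% of all genes. Without replicate 3, 6 genes rose and none fell, where 13.4% of all genes rose and 9.7% fell. Dhx58 then differed by 3.10 ± 0.304 and Ifih1 by 2.27 ± 0.173, while Mavs (0.31 ± 0.111, adjusted p = 0.0501) and Ikbke (-0.17 ± 0.0978, adjusted p = 0.243) did not pass. The calls on Ikbke and Mavs were also lost without replicate 3 of the group lacking Fadd, and that on Ikbke without its replicate 1 or 2. In a fit of these 2 groups alone, Ddx58 and Tbk1 passed. The comparisons above share the Mlkl or the Casp8DA Cflar Mlkl Casp1 libraries. Enterocyte markers in the group lacking Fadd, 31079 to 35019 CPM, lay within the control range, and neutrophil markers summed to 3.29 to 15.2 CPM. In the fit without replicate 3 of Casp8DA Cflar Mlkl Casp1, 2 of 5 enterocyte and 3 of 5 epithelial markers rose against Mlkl. Against Casp8DA Cflar Mlkl Casp1, 4 of the 5 enterocyte markers rose from a sum of 15361 to 21907 CPM, and all 4 erythroid markers fell, to 101 to 281 CPM from 248 to 1454. Of the 7 macrophage markers 4 fell and 1 rose with all libraries, and 2 fell and 2 rose without replicate 3, with sums of 495 to 517 CPM against 369 to 634. Against Mlkl the macrophage sum compared with 408 to 437 CPM and 0 of 7 passed with all libraries, or 2 rose without that library, while 1 of 4 plasmacytoid dendritic cell markers rose, the sum being 795 to 1028 CPM against 124 to 148. That marker was Bst2, itself an interferon-stimulated gene, at 707 to 951 CPM. Their part in the results was not tested.

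In the second set all 8 genes changed in Casp8CA Mlkl intestines, 7 higher and Mavs lower, where 22.4% of all genes rose and 19.7% fell, 42.1% in all. The groups did not overlap in any of the 8, as in 53.6% of all genes. The median log2 fold change of the 8 was 1.53, against 0.02 over all genes. Dhx58 lay at 84.3, 78.1 and 91.8 RPKM against 4.04, 6.19 and 7.70 in the Mlkl controls, with a log2 fold change of 3.83 ± 0.206 (adjusted p = 4.85e-09). Ifih1 lay at 30.9, 33.1 and 39.8 RPKM against 3.75, 4.70 and 5.10 (2.94 ± 0.171, adjusted p = 1.00e-08), and Ddx58 at 43.6, 42.8 and 50.2 against 11.9, 12.6 and 12.2 (1.90 ± 0.168, adjusted p = 5.00e-07). Every mutant library was far above every control for each sensor. Adar lay at 42.9, 46.9 and 47.4 RPKM against 13.9, 14.1 and 15.02 (1.67 ± 0.120), and Eif2ak2 at 32.3, 36.6 and 38.4 against 13.7, 13.8 and 13.4 (1.39 ± 0.129).

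Both kinases rose, and the adaptor fell. Tbk1 lay at 35.3, 39.0 and 41.3 RPKM against 20.9, 22.6 and 24.02 (0.78 ± 0.113, adjusted p = 6.84e-05), and Ikbke at 26.7, 28.997 and 30.2 against 16.5, 17.7 and 20.2 (0.66 ± 0.108, adjusted p = 0.000197). Mavs lay at 20.0, 13.9 and 17.1 RPKM against 39.0, 41.6 and 38.5, a fall of 1.23 ± 0.146 on the log2 scale (adjusted p = 1.03e-05). Enterocyte markers summed to 12258 to 15110 CPM against 26059 to 42435 in these controls, neutrophil markers to 271 to 338 against 7.36 to 21.9, and Ptprc to 43.8 to 61.4 against 12.2 to 15.7. Of 7 macrophage markers 4 rose, with sums of 510 to 575 CPM against 374 to 430, and of 4 plasmacytoid dendritic cell markers 2 rose and 1 fell, with sums of 803 to 878 CPM against about 107. What part these markers had in the result was not tested.

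Casp8CA Mlkl Casp1 intestines had the highest levels of Ddx58, Ifih1, Dhx58, Adar, Eif2ak2 and Tbk1 in the set. Against Mlkl, 7 of the 8 rose and Mavs fell, where 19% of all genes rose and 17.1% fell. The groups did not overlap in any of the 8, as in 51% of all genes. Dhx58 lay at 177, 177 and 158 RPKM (4.84 ± 0.215, adjusted p = 1.18e-09), Ifih1 at 46.4, 47.8 and 46.3 (3.37 ± 0.174) and Ddx58 at 72.0, 64.3 and 58.1 (2.41 ± 0.171). Tbk1, at 60.2, 59.2 and 54.1 RPKM, rose by 1.36 ± 0.114 (adjusted p = 6.75e-07), and Ikbke, at 24.9, 24.6 and 20.8, by 0.37 ± 0.108 (adjusted p = 0.0167). Mavs lay at 28.1, 27.1 and 26.0 RPKM, between the Casp8CA Mlkl and the control values (-0.55 ± 0.144, adjusted p = 0.00899). The call on Ikbke was lost without replicate 1 or replicate 2 of either group. The plasmacytoid dendritic cell markers summed to 1338 to 1649 CPM against about 107 in Mlkl, with 1 of 4, Bst2 (1280 to 1592 CPM), higher. Of 7 macrophage markers 3 rose, with sums of 549 to 597 CPM against 374 to 430, and 3 of 5 fibroblast markers fell. The part of the markers in the result was not tested.

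Set against Casp8CA Mlkl, the loss of Casp1 raised 6 genes, where 17.9% of all genes rose and 33.5% changed in either direction. The groups did not overlap in any of the 8, as in 53.5% of all genes. Dhx58 rose by 1.01 ± 0.183 (adjusted p = 0.000804), Mavs by 0.67 ± 0.145 (adjusted p = 0.00282) and Tbk1 by 0.59 ± 0.112 (adjusted p = 0.00119). Ddx58, Ifih1 and Adar rose by 0.51 ± 0.162, 0.44 ± 0.157 and 0.36 ± 0.117, with adjusted p of 0.0257, 0.0456 and 0.0287. These last 3 calls were lost, leaving 3 genes, without replicate 1 or 2 of Casp8CA Mlkl or replicate 1 or 2 of Casp8CA Mlkl Casp1. Ifih1 was also lost without replicate 3 of the latter, and Adar without replicate 3 of the former. Eif2ak2 (0.22 ± 0.126, adjusted p = 0.197) and Ikbke (-0.29 ± 0.108, adjusted p = 0.0507) did not pass. Enterocyte markers were at 38299 to 48708 CPM, neutrophil markers at 11.4 to 15.9 and Ptprc at 16.0 to 17.1 in the group lacking Casp1, against 7.36 to 21.9 for neutrophils and 12.2 to 15.7 for Ptprc in the Mlkl controls. Against Casp8CA Mlkl, 4 of 5 enterocyte markers rose, 3 of the 4 neutrophil markers tested and Ptprc fell, and 4 of 7 macrophage markers fell and 1 rose. Their part in the result was not tested.

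Casp8CA Cflar Mlkl intestines had means between those of the Mlkl and Casp8CA Mlkl groups for all genes but Mavs. Against Mlkl, the sensors and effectors rose, Mavs fell, and the kinases did not pass, where 27.9% of all genes rose and 24.9% fell, 52.8% in all. The groups did not overlap in 7 of the 8, all but Ikbke, and in 55% of all genes. Dhx58 lay at 34.4, 32.7 and 44.0 RPKM (2.63 ± 0.197, adjusted p = 8.19e-08), Ifih1 at 18.8, 16.6 and 25.3 (2.16 ± 0.167, adjusted p = 1.05e-07), and Ddx58 at 22.5, 21.4 and 34.9 (1.10 ± 0.165, adjusted p = 6.24e-05). Every one of these libraries was above all controls. Adar, at 30.2, 25.4 and 32.5 RPKM, rose by 1.03 ± 0.119, and Eif2ak2, at 24.6, 19.8 and 28.7, by 0.84 ± 0.128. Tbk1, at 27.2, 24.04 and 30.6 RPKM, missed the threshold (0.28 ± 0.113, adjusted p = 0.0501), as did Ikbke at 20.2, 18.7 and 18.3 (0.07 ± 0.108, adjusted p = 0.596). Mavs lay at 10.1, 8.12 and 12.04 RPKM, the lowest mean of the set, and fell by 1.97 ± 0.150 on the log2 scale (adjusted p = 9.34e-08). In this group the enterocyte markers summed to 1788 to 5792 CPM and the neutrophil markers to 138 to 236 CPM. Ptprc rose, and of 7 macrophage markers 5 rose and 1 fell, with sums of 360 to 426 CPM against 374 to 430. Replicate 3, with the highest Ddx58, Ifih1, Dhx58, Adar, Eif2ak2 and Tbk1 of the group, had an enterocyte sum of 5792 CPM against 1788 and 2467. Without it the same 5 genes rose and Mavs fell, Ddx58 by 0.84 ± 0.116 and Ifih1 by 1.97 ± 0.140. The part of these markers in the result was not tested.

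Against Casp8CA Mlkl, the loss of Cflar lowered all 8 genes, where 6.95% of all genes rose and 12.4% fell. The falls ran from 0.50 ± 0.112 for Tbk1 (adjusted p = 0.00720) to 1.19 ± 0.184 for Dhx58 (adjusted p = 0.000682) on the log2 scale, with Mavs at -0.75 ± 0.147 and Ikbke at -0.59 ± 0.108. All 3 libraries lay below all 3 of Casp8CA Mlkl in each gene, as in 32.3% of all genes, in either direction. All 8 calls were kept when any of the 6 libraries was left out. Of the enterocyte markers 4 of 5 fell, of the plasmacytoid dendritic cell markers 3 of 4, of the macrophage markers 2 of 7, and Ptprc fell. What part these markers had in the result was not tested.

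**Figure D4:**
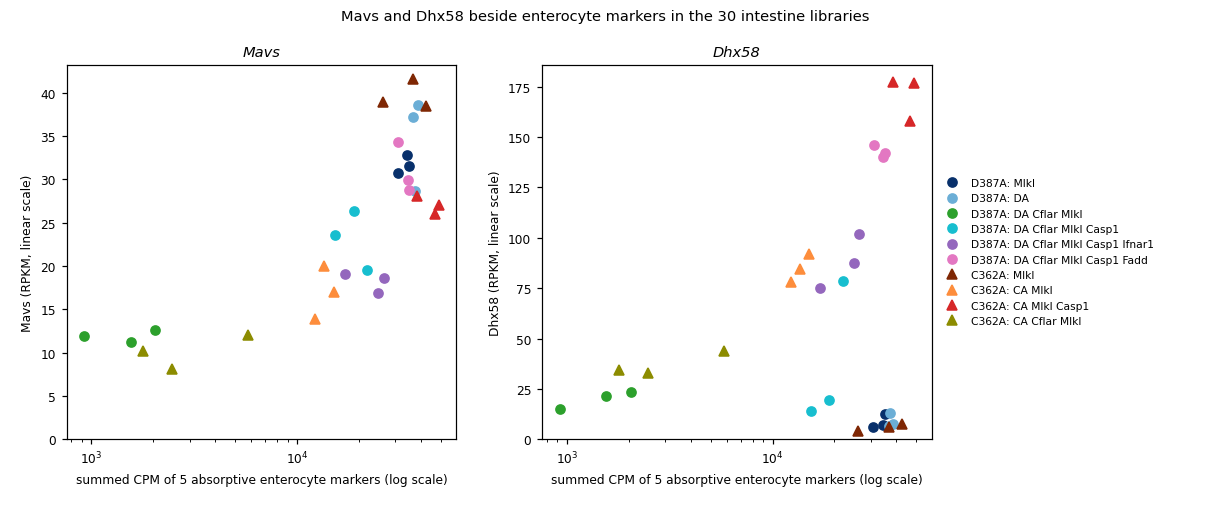
Mavs and Dhx58 (RPKM, linear y axis) against the summed CPM of 5 absorptive enterocyte markers (log x axis) in the 30 intestine libraries, coloured by group. The Casp8DA Cflar Mlkl and Casp8CA Cflar Mlkl libraries, with enterocyte sums of 923 to 5792 CPM, hold the lowest Mavs values, 8.12 to 12.6 RPKM, while Dhx58 takes both low and high values where enterocyte sums are high.

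The interferon transcripts that the pathway induces were scarce. Ifnb1, the interferon beta gene, had 0 reads in all Mlkl and Casp8DA intestines, at most 1 in Casp8DA Cflar Mlkl, 1, 0 and 2 in Casp8DA Cflar Mlkl Casp1, 4, 2 and 8 with Ifnar1 KO added, and 12, 26 and 11 with Fadd KO added. In the second set it had 4, 8 and 5 reads in Casp8CA Mlkl, 37, 58 and 44 in Casp8CA Mlkl Casp1 and 0 in all Casp8CA Cflar Mlkl libraries. The libraries with the most Ifnb1 reads were thus those of the groups with the most Dhx58. Ifnl2 and Ifnl3, near-identical interferon lambda genes whose reads may be split between them, had 16, 10 and 6 and 9, 18 and 8 reads with Fadd KO added, and 20, 22 and 22 and 19, 24 and 21 in Casp8CA Mlkl Casp1. Elsewhere Ifnl2 had at most 7 reads per library and Ifnl3 at most 6. Ifna4 had at most 1 read in any library. A count of 0 allows up to 3 reads in that library, for counting error only.

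With all libraries, Ifnb1, Ifnl2 and Ifnl3 passed the filter on low counts in the second set only, and none passed in the first. They passed through the reads of Casp8CA Mlkl Casp1, the group where they were highest, so they are given as reads with no test. In the MEFs Ifnb1, Ifnl2, Ifnl3 and Ifna4 were at 0 reads.

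**Figure D5:**
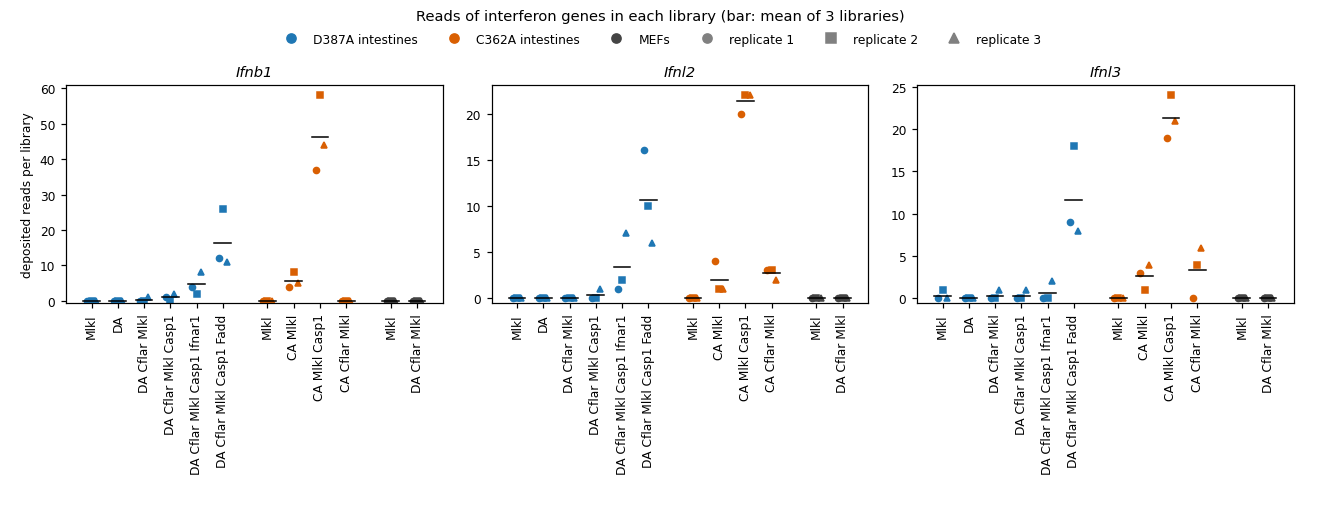
Deposited reads per library (linear y axis) of Ifnb1, Ifnl2 and Ifnl3, with groups on the x axis, replicates as symbols and a bar at the mean of 3. Reads cluster in Casp8DA Cflar Mlkl Casp1 Fadd (Ifnb1 12, 26 and 11) and Casp8CA Mlkl Casp1 (Ifnb1 37, 58 and 44), and controls and MEFs are at 0 or 1.

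In MEFs none of the 8 genes passed the test between Casp8DA Cflar Mlkl and Mlkl, and the groups overlapped in each, while 12.5% of all genes had groups that did not overlap. Of the 15465 genes tested 0.097% rose and 0.0129% fell, and 1001 had an unadjusted p under 0.05. Ddx58 lay at 10.7, 14.3 and 11.5 RPKM against 10.9, 11.8 and 12.9, Mavs at 11.6, 13.1 and 12.7 against 12.9, 11.99 and 13.7, and Ifih1 at 1.24, 2.25 and 1.73 against 1.40, 1.99 and 2.30. The members' log2 fold changes ran from -0.12 ± 0.244 (Ifih1) to 0.20 ± 0.355 (Dhx58), with adjusted p of at least 0.894. Dhx58 rested on 32 to 78 reads per library, and its standard error was the largest of the 8, while those of Tbk1 (0.0648) and Mavs (0.0761) were the smallest.

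The difference between the intestinal and the MEF effect of the same genotype was tested as an interaction. It passed for Ifih1 (1.42 ± 0.450, adjusted p = 0.0155), Eif2ak2 (0.91 ± 0.249, adjusted p = 0.00596), Adar (0.74 ± 0.264, adjusted p = 0.0312) and Mavs (-1.35 ± 0.151, adjusted p = 4.89e-07), the first 3 higher and Mavs lower in the intestine. All genes tested passed at 21.5% higher and 16.9% lower. The other 4 members did not pass. Without replicate 3 of Casp8DA Cflar Mlkl Casp1, Ddx58 (0.49 ± 0.181, adjusted p = 0.0365) and Ikbke (0.39 ± 0.138, adjusted p = 0.0306) passed too, where 22.3% of all genes were higher and 17.3% lower. The call on Adar was lost without replicate 1 or 3 of either intestinal group, replicate 2 or 3 of the Mlkl MEFs, or replicate 1 or 2 of the Casp8DA Cflar Mlkl MEFs.

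Between the intestine sets, the effect of the Casp8 mutation with Cflar and Mlkl deletion was compared with its own controls in each. The Cflar deletion and the line differed between the sets too, so the Casp8 mutation cannot be told apart from them. None of the 8 differences passed, where 0.0509% of all genes were higher and 0.0764% lower for D387A, with 4043 genes at an unadjusted p under 0.05. The differences, D387A minus C362A, ran from -1.41 ± 0.565 for Dhx58 (adjusted p = 0.164) to 0.55 ± 0.184 for Mavs (adjusted p = 0.106). Without replicate 3 of Casp8DA Cflar Mlkl Casp1, Ifih1 (-0.88 ± 0.230, adjusted p = 0.0465) and Dhx58 (-1.40 ± 0.350, adjusted p = 0.0422) passed as smaller in the D387A set, where 0.776% of all genes were higher and 1.02% lower. Mavs alone passed without replicate 3 of Casp8CA Cflar Mlkl (0.70, adjusted p = 0.0132).

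The effect of Casp1 loss differed between the sets for Ikbke alone when all libraries were used. Ikbke rose by 0.62 with D387A and had a log2 fold change of -0.29 with C362A, a difference of 0.93 ± 0.238 (adjusted p = 0.00924), where 10.9% of all genes were higher and 6.03% lower. The 2 backgrounds were not alike, since Cflar was deleted in the D387A groups only. Ikbke remained without replicate 3 of Casp8DA Cflar Mlkl Casp1 (0.51 ± 0.147, adjusted p = 0.0147), and the effect was lower with D387A for Dhx58 (-1.24 ± 0.361), Ifih1 (-0.88 ± 0.240), Adar (-0.68 ± 0.162), Eif2ak2 (-0.53 ± 0.175) and Tbk1 (-0.50 ± 0.131), with adjusted p of 0.0154, 0.0105, 0.00404, 0.0317 and 0.00763. In that fit 12.9% of all genes were higher and 9.01% lower.

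Other genes of the pathway were described by lists chosen for their role. Of all genes tested, 29.9% rose and 29.5% fell in Casp8DA Cflar Mlkl, 10.2% and 11.2% in Casp8DA Cflar Mlkl Casp1, 24.7% and 23.6% with Ifnar1 KO added, 9.97% and 8.4% with Fadd KO added, 22.4% and 19.7% in Casp8CA Mlkl, and 0.097% and 0.0129% in the MEFs, each against Mlkl. Of 10 modifiers of RIG-I and MDA5, 6 rose and none fell in Casp8DA Cflar Mlkl, 3 rose in Casp8DA Cflar Mlkl Casp1 Fadd (4 without replicate 3 of Casp8DA Cflar Mlkl Casp1), and 4 rose in Casp8CA Mlkl. Rnf125, a ubiquitin ligase that marks RIG-I for degradation, had the largest change in Casp8DA Cflar Mlkl (1.40 ± 0.287, adjusted p = 0.000442), and Cyld, a deubiquitinase, the smallest among those that passed (0.25 ± 0.0971, adjusted p = 0.0356). In Casp8CA Mlkl, Rnf125 rose by 0.84 ± 0.226 and Cyld did not pass. The median of the list in Casp8DA Cflar Mlkl was 0.26, against -0.01 over all genes.

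Of 14 partners of MAVS and TBK1, 6 rose and 3 fell in Casp8DA Cflar Mlkl, 9 rose in Casp8DA Cflar Mlkl Casp1 Ifnar1 and 9 in Casp8CA Mlkl, with the same counts for the first 2 groups without that replicate. Irf7, the interferon regulatory factor induced by interferon, rose by 1.32 ± 0.540 in Casp8DA Cflar Mlkl (adjusted p = 0.0443), 3.54 ± 0.585 in Casp8DA Cflar Mlkl Casp1 Fadd and 4.72 ± 0.265 in Casp8CA Mlkl Casp1. Ikbkb, a kinase of the NF-kB pathway, rose least of those that passed in Casp8DA Cflar Mlkl (0.19 ± 0.0733, adjusted p = 0.0300). In MEFs 1 of the 14 rose, Traf3 (0.53 ± 0.0596, adjusted p = 0.0184), the ubiquitin ligase that links MAVS to TBK1. It was named after its value was seen.

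Of 17 other sensors and binders of double-stranded RNA, 11 rose and 1 fell in Casp8DA Cflar Mlkl, 9 rose in each of the 3 groups that added Casp1 KO, and 9 rose and 1 fell in Casp8CA Mlkl. Without replicate 3 of Casp8DA Cflar Mlkl Casp1, 8 rose in that group and the counts in the other 3 groups of the first set were as before. Oas3, which makes the second messenger that activates RNase L, rose most in Casp8DA Cflar Mlkl (3.93 ± 0.766, adjusted p = 0.000269), followed by Zbp1, a sensor of left-handed nucleic acids (3.86 ± 0.734, adjusted p = 0.000212). Oas3 rose by 6.61 ± 0.811 in Casp8DA Cflar Mlkl Casp1 Fadd and 7.97 ± 0.245 in Casp8CA Mlkl Casp1. In MEFs 0 of the 16 members tested passed.

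PKR is one of several kinases of the translation factor eIF2. Of 8 genes for the other eIF2 kinases and the response to them, 4 rose and 2 fell in Casp8DA Cflar Mlkl, and 5 rose and 1 fell in Casp8CA Mlkl. Ppp1r15a, a phosphatase subunit that restores translation, rose by 1.43 ± 0.167 in Casp8DA Cflar Mlkl (adjusted p = 1.10e-06) and 1.62 ± 0.120 in Casp8CA Mlkl, and its relative Ppp1r15b by 0.45 ± 0.0799 and 0.56 ± 0.120. None of the 8 passed in the MEFs.

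Across the 30 intestine libraries, each gene's log2 CPM minus the mean of its own set's Mlkl libraries was correlated with that of 18195 genes, as a description of libraries that share sets, groups and depth. Ddx58, Ifih1, Dhx58, Adar, Eif2ak2 and Tbk1 correlated with each other at Pearson r of 0.904 to 0.991. Ikbke correlated with these 6 at 0.482 to 0.547, and Mavs with the other 7 at -0.425 to -0.0410. Over the 29 libraries without replicate 3 of Casp8DA Cflar Mlkl Casp1 these ranges were 0.903 to 0.991, 0.492 to 0.561 and -0.425 to -0.0399. The genes most like Ddx58 were Rnf31 (0.993), Znfx1 (0.992) and Adar (0.987), those most like Ifih1 were Parp12 (0.996), Trim25 (0.992) and Oasl2 (0.992), and those most like Dhx58 were Parp9 (0.995), H2-T24 (0.994) and Oas1a (0.994). Adar was followed most closely by Zc3hav1 (0.991), Pml (0.990) and Parp9 (0.990), and Eif2ak2 by Pml (0.985), Adar (0.979) and Dtx3l (0.977). Mavs was most like Ube2q1 (0.987), Wbp2 (0.987) and Slc25a44 (0.986). Genes most like Tbk1 included Mocos (0.978) and Arel1 (0.978). Ikbke, whose best match was weaker, was most like Tnip1 (0.867), Ppp2r5b (0.851) and Dusp14 (0.843).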

How the data were processed

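RNA was sequenced from 30 intestine and 6 MEF libraries, 36 in all. The authors aligned reads with GSNAP to GRCm38 (mm10), per the labels, counted those falling on exons, and deposited the counts for 52636 genes with gene widths and RPKM. The annotation and strand setting are not given in the sources used here. The labels and the study's methods differ on the library kit and sequencer. Counts were used as deposited, and the deposited RPKM column was not used. RPKM was computed from counts, widths and TMM-scaled library sizes. Levels were scaled and tested within the D387A intestines, the C362A intestines or the MEFs, except for tests of differences between sets, which were fitted on both sets together.

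Genes passed filterByExpr (minimum count 10, total 15), which kept 18360, 19408 and 15465 genes. The edgeR 4.0.16 quasi-likelihood test (R 4.3.3) was used with Benjamini-Hochberg adjustment over all genes tested and a threshold of 0.05. The study names limma for its own tests. The test was checked on simulated data. Alternatives were DESeq2 1.42.0, limma-voom (limma 3.58.1), RLE scaling, no filter, only the groups compared, a replicate block, and each library left out. The members and gene lists were chosen with earlier results of these data known. From each list the genes with the largest and smallest change among those that passed in Casp8DA Cflar Mlkl were named, and for likeness the 3 with the highest correlation, except for 2 genes that are not reported here.

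Replicates within a group differed by 5.34 to 77.2 times the Poisson expectation over 36 pairs, so none was a copy of another. The labels do not state which replicates came from separate litters, so p-values measure the spread between these samples. Same-numbered libraries deviated together in the MEFs (r of 0.181 to 0.310 in 3 of 3 pairs), and between Mlkl and Casp8DA intestines (0.111 to 0.220 in 3 of 3 pairs). No other 2 groups had all 3 pairs over 0.1, with r of -0.278 to 0.221 over the 45 pairs of the D387A set and -0.438 to 0.291 over the 18 of the C362A set. Libraries with different numbers reached r of 0.336 between Casp8DA and Casp8DA Cflar Mlkl Casp1 Fadd. They reached 0.418 between Mlkl and Casp8CA Mlkl. No source used here pairs the libraries by number, so the numbers are not shown to mark pairs. The depth of at least 17943524 reads limits the precision for genes with few reads, such as the interferon genes.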

Additional observations from a re-analysis of the deposited data

Results flagged for a closer look

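The effects of the same change in genotype differed between sets or tissues in 5 results, each by an interaction term in the edgeR quasi-likelihood test with Benjamini-Hochberg adjustment. The effect of Casp1 loss on Ikbke was higher in the D387A than in the C362A intestines by 0.93 ± 0.238 (SE) on the log2 scale (adjusted p = 0.00924). Cflar was deleted in the former groups only. Without replicate 3 of Casp8DA Cflar Mlkl Casp1 the difference for Ikbke was 0.51 ± 0.147 (adjusted p = 0.0147), and 5 other members passed as lower. The effect of Casp8 D387A with Cflar and Mlkl deletion was higher in intestines than in MEFs for Ifih1 by 1.42 ± 0.450 (adjusted p = 0.0155), for Eif2ak2 by 0.91 ± 0.249 (adjusted p = 0.00596) and for Adar by 0.74 ± 0.264 (adjusted p = 0.0312). For Mavs the difference was -1.35 ± 0.151 (adjusted p = 4.89e-07). The call on Adar was lost in 8 of 13 fits with a library left out, with an adjusted p of up to 0.0905 in the same test. Groups of 3 libraries were not tested for single outlying values.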

How the results depend on the processing

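Of 1792 values recomputed for the 8 genes under the alternatives, 1670 kept their side of the threshold, 38 of them changing sign without passing, 70 no longer passed, 49 passed newly and 3 reversed. The 3 reversals were all for Casp1 loss in the D387A set without replicate 3 of Casp8DA Cflar Mlkl Casp1: Ifih1 at -0.47, Adar at -0.35 and Eif2ak2 at -0.34. In fits of only the groups compared, the number of members that changed was 1 for Casp8DA Cflar Mlkl Casp1 against Mlkl (7 with all libraries), 1 for Casp1 loss (2), 1 for Ifnar1 loss (4) and 2 for Fadd loss (8). For Ifnar1 loss, limma-voom gave 7 and no filter on low counts gave 7. With each library left out in turn, Ifih1 ran from -0.47 to 0.50, Adar from -0.35 to 0.29 and Eif2ak2 from -0.34 to 0.23 for Casp1 loss in the D387A set. The counts ran from 1 to 5 for Casp1 loss and 2 to 8 for Ifnar1 loss in the D387A set, and from 3 to 5 for Casp1 loss in the C362A set. They ran from 0 to 2 for the difference between sets in the Casp8 mutant Cflar Mlkl effect and from 1 to 6 for that in the Casp1 loss effect. The fit without replicate 3 of Casp8DA Cflar Mlkl Casp1 was added after the data were seen for the comparisons that do not use that group, the gene lists and the correlations. Beyond the fewer samples in each such fit, the cause was not tested. The counts of 0 in Casp8DA and in the MEFs stayed at 0 under all alternatives, DESeq2 and limma-voom included. Numbers were not shown to pair the samples. The study calls groups littermates, and which libraries share a litter is not given in the sources used here. The replicate block gave same-numbered libraries of all groups in a set a shared term, so its counts rest on a pairing that is not known. With the block, Casp8DA still had 0 changed members. It gave 6 changed members on Ifnar1 loss (Ddx58 at 0.63 and Adar at 0.56 added) and 7 on Fadd loss (Ikbke lost). No MEF member passed with or without the block.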

Other observations

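The cytosolic DNA sensing genes that also signal through TBK1 were measured beside the RNA sensors. Tmem173 (STING) rose by 1.99 ± 0.159 on the log2 scale in Casp8DA Cflar Mlkl (adjusted p = 1.20e-08, edgeR quasi-likelihood test) and by 2.32 in Casp8CA Mlkl. Cgas, which makes the messenger that activates STING, rose by 1.52 and 2.52 in the same groups. On loss of Casp1, Tmem173 fell by 1.34 in the D387A set and by 1.70 in the C362A set, and Cgas fell by 0.89 in the former. Without replicate 3 of Casp8DA Cflar Mlkl Casp1, the falls in the D387A set were -1.57 ± 0.138 for Tmem173 and -1.17 ± 0.118 for Cgas on the log2 scale. Mavs rose in both sets. In MEFs neither gene passed.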
